A study of Mus musculus with 38 samples.

Results

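The comparison described here is that of mice fed a high fat diet with 20 µg of the botanical formulation KAL-1 (HF20) against mice fed the same high fat diet alone (HFC), at weeks 3, 6, 9, 12, 15 and 18. Its members are the 6 HF20 arrays and the 6 HFC arrays of those weeks, 12 of the 38 arrays of the series, paired by week and assigned to a dose by their source name. Each array held RNA of epididymal stromal vascular cells (SVCs, the non-adipocyte fraction of fat tissue), which the labels describe as infiltrating macrophages, from C57BL/6J mice on a one-colour Agilent mouse array. The mice were 3 to 4 weeks old at the start, were divided into 5 groups of 30 animals, and 5 animals per group were killed every 3 weeks. Low fat control mice (LFC) received a diet with 10% of calories from fat. HFC and all dosed mice (HF5, HF20 and HF75, for 5, 20 and 75 µg) received a diet with 60% of calories from fat and added sucrose, and no genetic change was named for any group. The labels do not say what the doses were measured against, nor whether an array held 1 animal or a pool. The series' design text speaks of 3 biological replicates, but there was 1 array per diet and week and so no replicate within a week, and the spread over the 6 weeks, which also holds differences of age and of array, was the replicate spread. The diet label of the HF20 arrays of weeks 15 and 18 names the 5 µg dose, and that of the HF5 arrays of these weeks names the 20 µg dose.

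In obese fat tissue, macrophages gather around dying adipocytes, take up their lipid and release cytokines such as tumour necrosis factor. Stromal vascular cells are freed by digesting the tissue with collagenase and spinning off the floating adipocytes. They hold macrophages, lymphocytes, fibroblast-like progenitors, endothelial cells and mesothelium, and epididymal fat lies against the epididymis, where sperm mature.

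Levels are given as log2 of the processed signal minus the log2 of the array's 75th percentile, so that 0 is the 75th percentile of that array. A difference is HF20 minus HFC on this scale, and 1 unit is a 2-fold change. A value marked as saturated lies at the scanner's ceiling, which sat at a different level on each array, and is a lower bound.

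The 75th percentile of the signal lay between 680 and 1350.9 on the HF20 arrays and between 493.39 and 1587.7 on the HFC arrays. It was higher in HF20 at 2 of 6 weeks, with a mean log2 difference of -0.137 (SD 0.715, n = 6 weeks, exact two-sided sign-flip permutation test, p = 0.5625, smallest possible p 0.03125), and stood furthest apart at week 9 (-1.22) and week 18 (0.996). Probes well above background made up 68.33% to 87.27% on HF20 and 62.58% to 91.64% on HFC, a mean difference of 4.39 percentage points (SD 7.41, n = 6 weeks, same exact test, p = 0.3125). The HFC array of week 12 had 4850 outlier spots (11.1%), so 30704 probes could be compared at that week against 33675 to 33703 at the others. The HF20 and HFC arrays of a week were scanned on the same day at weeks 6, 12 and 15 and on different days at weeks 3, 9 and 18, and never lay on the same slide.

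The macrophage label was checked against marker genes. Adgre1 (F4/80), a surface receptor of macrophages, was read at 0.05 to 3.65 on the HF20 arrays and at 0.65 to 3.76 on the HFC arrays. Csf1r, the receptor of the macrophage growth factor, ranged from -0.84 to 3.27 and from 0.01 to 3.13. The RNA also held other cells' transcripts. Fabp4, a fatty acid carrier of adipocytes that macrophages share, was saturated on all 12 arrays but HF20 of week 12, and the adipocyte hormone Adipoq ranged from -1.28 to 5.41. The matrix protein Dcn of fibroblasts was saturated on all 12 arrays. Tnp1, which packages sperm DNA, was well above background on all 12 but over a wide range, from -5.26 to 4.96. In such bulk RNA, fewer cells of a type and less RNA per cell cannot be told apart.

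Over the 6 weeks, no gene separated HF20 from HFC after adjustment. Of 33709 probes tested, 0 (0%) passed an adjusted p of 0.05 in limma with week as a block over 30 arrays, and the smallest adjusted p was 0.9999. At an unadjusted p below 0.05, 438 probes (1.30%) were higher and 78 (0.231%) lower in HF20. Quantile scaling gave 449 and 155. Leaving out week 6 moved their sum of 516 to 866. The methods' t-test, unpaired and over the 12 HF20 and HFC arrays, found 323 at that threshold and 0 after Benjamini-Hochberg adjustment. The median difference over all probes was 0.04, the median absolute difference 0.201 and the median standard error 0.423, so a typical probe differed by less than its error. Across all 6 weeks 389 of 30601 probes (1.27%) were higher every time and 171 (0.559%) lower every time. The probes of unadjusted p below 0.05 were dim: the higher ones had a median level of -5.245 against -1.974 for all probes, and 22.8% of them were well above background on all 12 arrays, against 65.2% of all probes.

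The gene of smallest p on the higher side was Ccin. It encodes calicin, a cytoskeletal protein of the sperm head. Its HF20 levels at weeks 3, 6, 9, 12, 15 and 18 were 0.04, -1.03, -0.53, 0.06, -1.72 and -1.40, and its HFC levels were -1.56, -1.02, -1.34, -2.45, -2.96 and -3.84, the last not well above background. HF20 was the higher array at 5 of 6 weeks, the pair of week 6 was level, and the ranges of the groups overlapped. The limma estimate was 1.43 (SE 0.36, unadjusted p = 0.000665). Marchf10, a ubiquitin ligase known from developing sperm tails, was well above background on all 12 arrays, at -2.25, -4.17, -1.43, -1.26, -3.31 and -2.38 in HF20 and at -4.59, -4.83, -3.53, -3.80, -4.05 and -5.08 in HFC. It was higher in HF20 at 6 of 6 weeks, by 0.66 to 2.70, and limma gave 1.85 (SE 0.62, unadjusted p = 0.00708). A second Marchf10 probe gave 1.54.

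Atp6v1e2, a testis form of a subunit of the vacuolar proton pump, was read at -1.41, -4.73, -0.81, -2.54, -3.64 and -3.01 in HF20 and at -4.05, -5.51, -5.17, -4.25, -4.22 and -5.07 in HFC, where the array of week 18 was not well above background. It was higher at 6 of 6 weeks, most at week 9 (4.37). M1ap, which is needed for meiosis in sperm precursors, was higher at 6 of 6 weeks with all 12 arrays well above background, from -3.15 to -1.18 in HF20 and from -3.87 to -2.37 in HFC, a limma estimate of 1.09 (SE 0.37, unadjusted p = 0.00736). Defb12, a beta-defensin of the epididymis, was well above background on 5 of 6 HF20 arrays (-4.97 to -1.16) but on 2 of 6 HFC arrays (-2.18 at week 3 and -6.75 at week 15), so its estimate of 2.88 set HF20 partly against values at background. The others were Gml (1.71), the homeobox factor Hmx1 (1.66), the glycerol-phosphate acyltransferase Gpat2 (1.24), Thegl (1.70), Fndc11 (0.91) and, from the pathway of small RNAs that guards the germline, Tdrd9 (1.70) and Spocd1 (1.37). Gml, Hmx1, Thegl, Tdrd9 and Spocd1 were well above background on 2 of 6 HFC arrays each, so their estimates also depend on values at background. The Gpat2 estimate lacked the HFC array of week 12. The mean level of the testis and sperm list over its members was higher in HF20 by 2.28 at week 3, 7.29 at week 9 and 1.61 at week 12 and differed by -1.43, -1.11 and -0.32 at weeks 6, 15 and 18. Its part in these 12 results was not tested.

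On the lower side, Apol7c, an apolipoprotein L, was well above background on all 12 arrays, at -3.29, -1.70, -2.46, -3.79, -2.90 and -3.00 in HF20 and at -1.50, 1.51, -1.63, -2.46, -3.44 and -2.39 in HFC. It was lower in HF20 at 5 of 6 weeks, most at week 6 (-3.21), and limma gave -1.20 (SE 0.49, unadjusted p = 0.0214). A second probe gave -0.70. Its relative Apol11b gave -1.91 (SE 0.55, unadjusted p = 0.00248) without the HFC array of week 12, where its spot was an outlier. Mogat1, an enzyme of triglyceride synthesis, ranged from -5.03 to -3.55 in HF20, and in HFC was at -3.24, -4.05 and -3.5 at weeks 6, 15 and 18 but at 2.09 at week 9, and not well above background at week 3. Angptl8, a secreted inhibitor of lipoprotein lipase, stood at 0.82 in HFC at week 9 and between -6.16 and -3.44 on the HF20 arrays. The limma estimates were -2.15 (SE 0.84, unadjusted p = 0.018) for Mogat1 and -2.04 (SE 0.78, unadjusted p = 0.0163) for Angptl8, both without the HFC array of week 12. The same HFC array of week 9 had the highest lipid droplet list level of the group, 4.47 against 2.53 in HF20, and its part in these results was not tested.

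Albumin (Alb), a liver protein, was well above background on 3 of 6 HF20 arrays and was highest in HFC at week 18 (1.63), an estimate of -2.64 (SE 1.09) that rests partly on values at background. The acute phase protein Orm3 gave -2.85 (SE 1.1), without the HFC array of week 12 and with its highest HFC value at week 9 (1.63). Pigg, of the pathway that builds membrane anchors, was lower at 6 of 6 weeks, with differences of -1.29 to -0.07 (estimate -0.70, SE 0.28). The remaining genes were Slc44a5 (-1.33), Zhx1 (-1.07), Sox11 (-1.62), Guf1 (-0.59) and Zfp931 (-1.07). Sox11 was well above background on 2 HF20 arrays and 4 HFC arrays, and Zfp931 on 3 and 4, so that their estimates depend on values at background. Slc44a5 was so on 4 arrays of each group. The other probes of Zhx1 gave -0.44 and 0.08, and those of Sox11 ranged from -1.05 to 0.88, so the probes of these genes did not read alike. Krt33a, a hair keratin, gave the smallest p of the lower side (estimate -3.19, SE 0.74, unadjusted p = 0.000272) but was well above background on 1 HF20 array (week 12, -5.06) and on 3 HFC arrays (weeks 6, 9 and 15, from -6.92 to -2.68), and so was not among the genes named by rule.

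**Figure D1:**
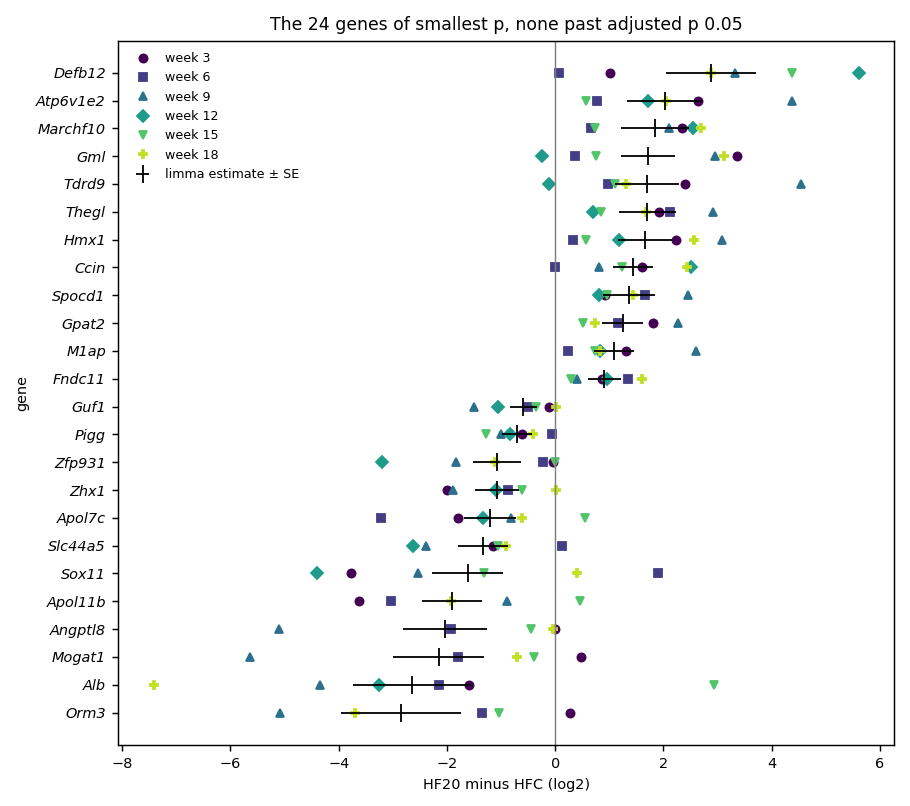
Differences (HF20 minus HFC, log2) at each week for the 24 genes of smallest p named by rule, with the limma estimate and its SE as a black bar. The estimates run from -2.85 to 2.88, and the single weeks spread widely around most of them, as for Alb, which was higher in HF20 at week 15 and lower at the other weeks.

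The HF5 and HF75 arrays share the HFC arrays as controls, so their values are given side by side with no comparison. Against HFC the mean difference of Ccin was 1.12 in HF5 and 0.57 in HF75, that of Marchf10 1.39 and -0.06, that of M1ap 1.49 and 0.03, and that of Atp6v1e2 1.96 and 0.44. Among the lower genes, Apol11b gave -1.61 in HF5 and -1.41 in HF75, and Mogat1 -1.62 and -1.73.

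Single weeks differed far more than the mean over weeks. In a week's pair of arrays, 5172 to 14780 probes (median 6972) differed 2-fold or more. At week 3, 2917 probes (8.66%) were higher and 2255 (6.69%) lower in HF20, and at week 6 3309 (9.82%) and 2929 (8.69%). Week 9 stood furthest apart, with 8354 (24.8%) higher and 6426 (19.1%) lower and a correlation of 0.881 between its arrays across probes. Week 12 followed with 5208 (17.0%) higher and 6358 (20.7%) lower. At week 15 the counts were 3494 (10.4%) and 2217 (6.58%), and at week 18 6204 (18.4%) and 1501 (4.46%). None of these counts has a replicate behind it.

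The balance of higher against lower depended on the scaling. Under the percentile shift, 56.4% of the probes apart were higher at week 3, 56.5% at week 9, 45% at week 12, 61.2% at week 15 and 80.5% at week 18. Quantile scaling gave 45% at week 9, 63% at week 12, 49.4% at week 15 and 59.5% at week 18. Background correction by normexp with quantile scaling gave 73.8% at week 3 and 64.5% at week 12, and 55.7%, 56.2% and 75.5% at weeks 9, 15 and 18. At week 12 quantile scaling moved the median of all probes from 0.005 to 0.319, and at week 9 from 0.085 to -0.129.

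**Figure D2:**
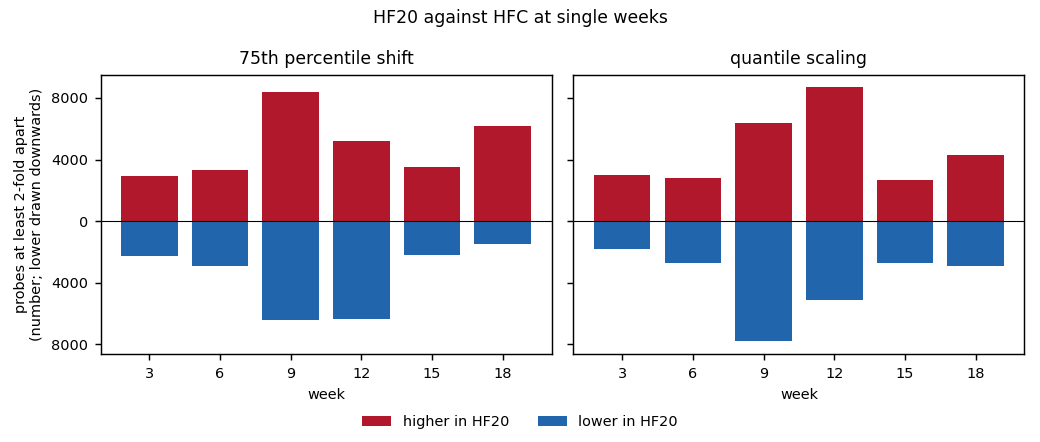
Counts of probes with a 2-fold or larger difference between the HF20 and HFC arrays of each week, higher in HF20 drawn upwards and lower downwards, under the percentile shift (left) and under quantile scaling (right). Week 9 has 8354 higher and 6426 lower under the shift, and the sides change places at weeks 9, 12 and 15 under quantile scaling.

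The genes that stood furthest apart at a week, among probes well above background and unsaturated on both arrays, differed from week to week. At week 3 a probe of Lcn5, an epididymal lipocalin, was at 4.51 in HF20 and -1.81 in HFC, and the defensin Defb30 at 5.43 and -0.68. Other epididymal lipocalins lay on the opposite side, with Lcn9 at -6.25 and 1.28 and Lcn8 at -5.56 and 1.82, beside the cystatin-related Cstdc2 (-5.88 and 2.65). The vitamin D carrier Gc (1.91 and -4.29) completed the higher side. Different epididymal genes were therefore higher and lower in the same pair of arrays. At week 6 the lower side was Defb28 (-7.19 in HF20 and 4.24 in HFC), Rnase12 (-6.30 and 2.02) and Wfdc13 (-5.84 and 1.96), secreted proteins of the epididymis or of its defensin-like families. The higher side was an immunoglobulin heavy chain probe, Ighg (4.54 and -0.14), Syt6 (-1.13 and -5.05), a vesicle protein known from the sperm acrosome, and the receptor Lgr4 (-0.87 and -4.75).

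At week 9 HF20 was higher in Tnp1 (4.96 and -5.26) and in a probe of Prm1 (5.07 and -3.80), which package sperm DNA, and in Znrf4 (2.96 and -5.46). It was lower in the fat hormone leptin, Lep (-2.37 and 5.01), Cyp2f2 (-5.28 and 2.01) and Lctl (-4.49 and 2.77). At week 12 the higher side was Defb23 (5.84 and -3.63), Spink12 (3.33 and -5.70) and Defb21 (3.4 and -5.38), all of epididymal families, and the lower side Creb3l3 (-4.52 and 2.62), Syt6 (-5.74 and 1.15) and Eml6 (-5.13 and 1.15). At week 15 the cystatins Cst11 (4.21 and -5.98), Cst12 (3.04 and -6.72) and Cstdc2 (4.26 and -5.05) were higher, and Syt6 (-6.54 and -0.42), Sin3b (-6.87 and -1.67) and Cartpt (-3.66 and 1.53) lower. At week 18 Hemgn (0.77 and -4.74), a nuclear protein of blood precursors, Plaat3 (2.25 and -3.16), a phospholipase of adipocytes, and Tmem52b (4.73 and -0.51) were higher. The lower side was Pate4 (-5.88 and 4.31), Spinkl (-4.64 and 5.18) and Svs3a (-4.47 and 5.07), products of the seminal vesicle and neighbouring glands. Syt6 and Cstdc2 changed sides between weeks.

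Gene lists for cell types and pathways were then read at each week. A list's value is the median difference over its tested members, set against the 0.04 median of all probes over the 6 weeks, and its members share the arrays. Over all probes the estimates had quartiles of -0.139 and 0.282, so more of them lay above 0 than below. Counts of members higher or lower on average are to be read beside that. At an unadjusted p below 0.05 in limma, 1.30% of all probes were higher and 0.231% lower. Of 270 medians (45 lists at 6 weeks), 73 were at least 1 in size, and 0 of those turned sign under quantile scaling or normexp, though some shrank, as for the ribosomal genes of week 9. Of all 270, 33 turned sign.

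Macrophage genes stood on opposite sides at successive weeks. Of 18 general macrophage genes, 16 were at least 2-fold lower in HF20 at week 12 and 15 were at least 2-fold higher at week 15, with none the other way at either week. Of all probes, 20.7% were that much lower at week 12 and 10.4% higher at week 15. Adgre1 stood at 1.92, 1.0, 3.65, 0.05, 3.24 and 3.64 in HF20 over the 6 weeks and at 2.04, 0.65, 3.76, 3.71, 0.84 and 2.95 in HFC. The pairs lay close together at weeks 3, 6 and 9, HF20 was the low array at week 12 and HFC the low array at week 15. Csf1r had the same shape, with -0.84 against 2.92 at week 12 and 1.93 against 0.01 at week 15. The mean of the list on HF20 of week 12 (-0.23) was the lowest of all 30 arrays, where HFC of that week was at 3.05. HF20 of week 12 was also the lowest of the 30 for the complement, stromal, collagen, endothelial, adipokine and lipid droplet lists and the highest for epididymal genes (1.86), and the part of this in the macrophage values was not tested. HFC of week 12 is the array with 11.1% outlier spots, and both arrays were scanned on the same day.

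Over the weeks the general macrophage median was -0.16, and it was 0.44 without week 12 and -0.54 without week 15. An unadjusted p below 0.05 was found for 1.30% of all probes on the higher side, 0.231% on the lower, and 1 of the 18 genes. This was Marco, a scavenger receptor for particles and bacteria, at 2.83, 2.26, 2.16, -0.47, -0.17 and 2.94 in HF20 and 0.07, -0.17, 0.30, 0.65, -0.99 and -0.07 in HFC. It was higher in HF20 at all weeks but week 12, an estimate of 1.63 (SE 0.78, unadjusted p = 0.0492 in limma). Among 14 genes of alternatively activated macrophages the median was -0.09 (0.43 without week 12 and -0.44 without week 15), and Chil3, a chitinase-like lectin, was the 1 gene with an unadjusted p below 0.05 (1.76, SE 0.77, p = 0.0313 in limma). Its HF20 levels were 1.69, 1.15, 2.15, -0.39, 2.10 and 4.01 and its HFC levels 0.12, 1.53, 0.24, -0.29, -2.32 and 0.88. The pairs of weeks 6 and 12 differed by -0.38 and -0.10, and HF20 was higher at the other 4 weeks.

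The 17 genes of lipid-associated macrophages had a median of -0.43, with 13 lower on average and a median of -0.03 without week 12. At week 12, 12 were at least 2-fold lower, against 20.7% of all probes. At week 9, 7 were that much lower and 5 higher, against 19.1% and 24.8% of all probes. Fabp5, a fatty acid carrier, was lower at 6 of 6 weeks (-1.40, unadjusted p = 0.0591 in limma). Lysosomal cathepsins and proton pump subunits had a median of -0.06 over 19 genes. At week 12, 7 of them were at least 2-fold lower and 2 higher, against 20.7% and 17.0% of all probes. In the cholesterol and LXR list Abcg1, which exports sterol from macrophages, was lower at 6 of 6 weeks, with differences of -1.55 to -0.29 (estimate -0.70, SE 0.31, unadjusted p = 0.0314 in limma). The list as a whole gave -0.01, with 8 of 16 genes higher and 8 lower.

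Cytokines, chemokines and lymphocyte genes were higher at weeks 9 and 15 and lower at week 12. Of 20 inflammatory genes, 16 were at least 2-fold higher in HF20 at week 9 and 13 at week 15, and 11 were at least 2-fold lower at week 12. The shares of all probes were 24.8%, 10.4% and 20.7%. Tnf, the tumour necrosis factor gene, was at 1.48, 0.03, 3.36, -0.36, 1.47 and 2.47 in HF20 and at 1.53, 0.36, -3.91, 3.29, -0.89 and 2.81 in HFC. The HFC array of week 9 was the low one by over 3 units and HF20 of week 12 was the lower of its pair. At week 9 Il6 stood at 3.94 against -3.80, Ifng at 4.05 against -3.29 and Il1b at 3.37 against -1.47. The 6 week median of the list was 0.58, which was -0.11 without week 9 and -0.33 in the 3 weeks scanned on the same day. No member had an unadjusted p below 0.05.

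The CC chemokines (13 genes, median 0.28) followed with 10 at least 2-fold higher at week 9, 12 lower at week 12 and 12 higher at week 15. Their median was -0.39 without week 9, 0.77 without week 12 and -0.45 in the weeks scanned on the same day. Of 19 T and cytotoxic lymphocyte genes, 17 were at least 2-fold higher at week 9 and 17 at week 15, and 14 were lower at week 6 and 14 at week 12. Of all probes, 24.8% were that much higher at week 9 and 10.4% at week 15, and 8.69% lower at week 6 and 20.7% at week 12. The median of the list was 0.30, and -0.31 without week 9 and 0.73 without week 12. Cd3d, a chain of the T cell receptor complex, was at 0.15, 2.24, 2.37, -1.54, 0.58 and -0.35 in HF20 and at -0.09, 3.82, -1.49, 0.57, -1.94 and 0.79 in HFC. The sign of its difference followed the list at weeks 6, 9, 12 and 15. B cell genes (12) had 10 higher at week 9 and 7 at week 15, and 9, 9 and 6 lower at weeks 6, 12 and 18. At week 18, 4.46% of all probes were that much lower. The B cell median was -0.03, and it was -0.64 without week 9.

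Neutrophil genes kept a positive median in each of 19 settings. All 11 were higher on average, with a median of 0.91 that ranged from 0.31 (weeks scanned on the same day) to 1.79 (without week 6) and was 0.53 and 0.52 without weeks 15 and 18. S100a8, a calcium-binding protein abundant in neutrophils, was at 1.79, -0.60, 1.98, -0.58, 2.92 and 3.77 in HF20 and at -0.14, 2.56, -0.87, 0.11, -2.85 and 2.03 in HFC. It was higher at weeks 3, 9, 15 and 18 and lower at weeks 6 and 12, an estimate of 1.41 (SE 0.99, unadjusted p = 0.17 in limma). Camp, an antimicrobial peptide of neutrophil granules, gave 1.45 (unadjusted p = 0.194 in limma) and was higher at 5 of 6 weeks. At week 6, 8 of the 11 genes were at least 2-fold lower, against 8.69% of all probes, and none higher, and Ltf (lactoferrin) was at -1.50 in HF20 and 4.51 in HFC. None of the 11 had an unadjusted p below 0.05.

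**Figure D3:**
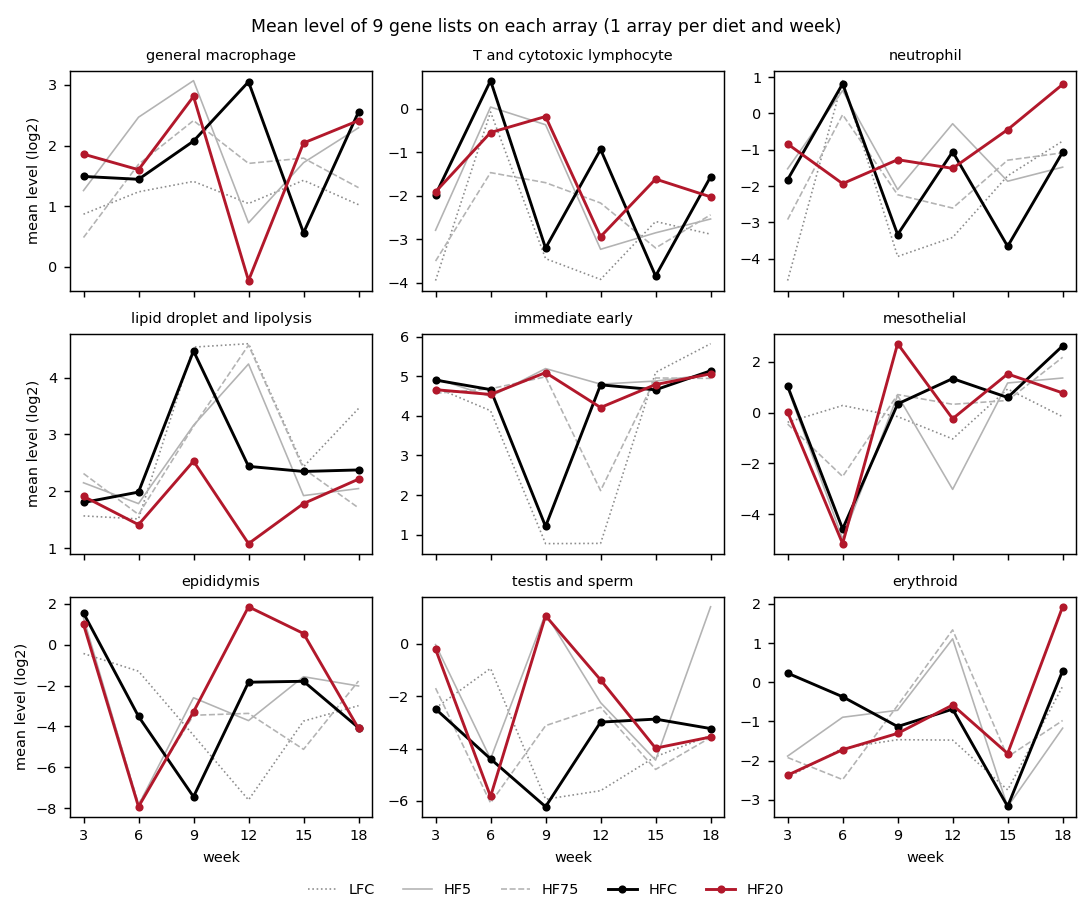
Mean level (log2, 0 is the array's 75th percentile) of 9 gene lists on each array by week, with HF20 in red, HFC in black and LFC, HF5 and HF75 in grey (1 array per point). HF20 of week 12 is the lowest array for general macrophage genes (-0.23), and at week 9 HFC and LFC part from the dosed arrays in immediate early genes. At week 12 LFC and HF75 lie below the other arrays in immediate early genes.

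Adipocyte genes were lower in HF20 at most weeks. All but 1 of the 9 adipokines and all but 1 of the 15 lipid droplet genes were lower on average, with medians of -0.85 and -0.68. Both medians stayed negative in each of 19 settings, from -1.04 to -0.51 and from -0.81 to -0.32, and were -0.71 and -0.64 in the weeks scanned on the same day. Adipoq, which encodes adiponectin, was at 2.01, 0.83, 3.12, -1.28, 1.53 and 2.06 in HF20 and at 1.78, 3.27, 5.41, 2.72, 2.99 and 2.83 in HFC, saturated in HFC at week 9. It was lower in HF20 at every week but week 3, and limma gave -1.79 (SE 0.76, unadjusted p = 0.0267). Cidec, which lets lipid droplets fuse, was at 2.84, 0.89, 4.37, -0.31, 2.81 and 3.16 in HF20 and at 2.95, 3.25, 5.39, 3.84, 3.80 and 3.57 in HFC, again saturated at week 9. It was lower at 6 of 6 weeks, with differences of -4.15 to -0.11 (estimate -1.51, SE 0.68, unadjusted p = 0.0376 in limma). These were the members of the lists with an unadjusted p below 0.05, 1 of 9 and 1 of 15, both lower. Of all probes, 0.231% were lower at that threshold.

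Lep was lower at 6 of 6 weeks and gave -2.50 (SE 1.34, unadjusted p = 0.0757 in limma), with -0.27 and -0.30 at weeks 3 and 6 and -7.38 at week 9. Its HF20 level of week 12 was not well above background. The resistin gene Retn gave -1.81 (unadjusted p = 0.0741 in limma), and Plin1, which coats lipid droplets, -1.67 (unadjusted p = 0.0761 in limma). The weeks were not alike: at week 3 the adipokine and lipid droplet medians were 0.2 and 0.2, at week 9 12 of 15 lipid droplet genes were at least 2-fold lower (19.1% of all probes), and at week 12 6 were (20.7% of all probes). The HFC array of week 9 carried the highest adipocyte levels of the 6 HFC arrays (mean lipid droplet level 4.47), LFC of week 9 stood at 4.54, and HF20, HF5 and HF75 of week 9 at 2.53, 3.16 and 3.14. The dosed arrays of week 9 were scanned on another day than HFC and LFC of week 9, and the intensities in their files were rounded to 3 significant digits. Batch and dose cannot be told apart at that week.

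Genes of fatty acid synthesis were lower at week 9 (12 of 12 at least 2-fold) and higher at week 12 (6 of 12, with 1 lower), where the shares of all probes were 19.1% lower and 17.0% higher. Scd2, a fatty acid desaturase, differed by -3.16 and 3.28 at these weeks. The median of the list was -0.39 over the weeks and 0.19 without week 9. Genes of adipogenesis and insulin signalling had a median of -0.42, with 10 of 12 lower on average. Pparg, the nuclear receptor that drives fat cell formation, was at 0.58, 1.26, 1.84, -0.48, 0.43 and 2.06 in HF20 and at 0.48, 1.51, 4.85, 2.04, 2.38 and 1.57 in HFC, with differences of -3.01, -2.52 and -1.95 at weeks 9, 12 and 15 and of 0.10, -0.25 and 0.49 at weeks 3, 6 and 18. Brown fat genes (9) had a median of -0.56, and Ucp1 was dim throughout, from -5.47 to -4.58 in HF20.

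Immediate early genes, which cells switch on within minutes of a stimulus, differed most at week 9. At week 9 all 18 were at least 2-fold higher in HF20, against 24.8% of all probes, and at the other weeks 0 were at least 2-fold higher. At least 2-fold lower were 1 at week 3 and 3 at week 12, against 6.69% and 20.7% of all probes. Fos, a subunit of the AP-1 transcription factor, was at 4.69, 5.52, 4.96, 4.2, 5.45 and 4.96 in HF20 and at 5.16, 5.5, -1.24, 4.78, 4.99 and 4.86 in HFC, with the HF20 array of week 15 saturated. The array that stood apart was HFC of week 9, and HF20 of week 9 lay among the other HF20 arrays. Atf3, a stress-induced factor, was at 5.76 in HF20 and 0.62 in HFC at that week, Fosb at 3.11 and -4.00, and Egr1 at 6.00 and 0.77.

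The mean level of the list at week 9 was 1.21 in HFC and 0.78 in LFC, and 5.19, 5.09 and 4.99 in HF5, HF20 and HF75. HFC and LFC of week 9 share a scan day and the 3 dosed arrays another. At week 12, when all diets shared a scan day, LFC (0.78) and HF75 (2.11) were low. HFC, HF5 and HF20 of that week were at 4.78, 4.80 and 4.21. The lipid droplet levels of LFC and HF75 of week 12 were 4.60 and 4.57, against 2.44, 4.24 and 1.08 in HFC, HF5 and HF20. Whether the levels of these lists are linked was not tested. The immediate early median over the 6 weeks was 0.57 and without week 9 it was -0.16. Egr2 was higher in HF20 at 6 of 6 weeks, by 0.15 to 2.35, an estimate of 0.84 (SE 0.64, unadjusted p = 0.203 in limma).

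Because all members of this list stood apart at the same week, the 250 bases before the start of Fos and Atf3 are shown. These had the largest differences at week 9 (6.21 and 5.14) among the 5 members whose window holds the hexamer TGACGT, core of the cyclic AMP response element. The sequences are from the RefSeq promoter table of GRCm38.p6, 5′ to 3′ on the strand of the gene, with that hexamer or its reverse complement ACGTCA in capitals. Fos lies at chr12:85473640-85473889 on the plus strand and Atf3 at chr1:191183334-191183583 on the minus strand.
Fos: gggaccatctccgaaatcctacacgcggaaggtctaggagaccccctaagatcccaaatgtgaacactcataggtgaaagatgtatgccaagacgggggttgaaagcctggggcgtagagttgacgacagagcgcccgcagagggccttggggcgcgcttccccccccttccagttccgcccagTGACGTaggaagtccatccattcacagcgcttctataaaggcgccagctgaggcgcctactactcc
Atf3: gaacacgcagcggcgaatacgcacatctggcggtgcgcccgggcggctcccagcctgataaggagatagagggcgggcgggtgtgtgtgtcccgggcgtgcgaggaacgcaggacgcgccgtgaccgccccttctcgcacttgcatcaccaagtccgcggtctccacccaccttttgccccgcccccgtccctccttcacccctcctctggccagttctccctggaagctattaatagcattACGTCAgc
The motif, searched on both strands in windows from 250 bases before to 50 bases after the start, was present in 5 of 15 immediate early genes with a window (33.3%: Fos, Egr2, Atf3, Dusp1 and Btg2), in 4 of 18 testis and sperm genes (22.2%), in 0 of 17 epididymal genes and in 2263 of 27025 genes in all (8.37%). A match describes the letters of the window and is not a site.

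Transcripts of the reproductive tract gave the widest differences, in both directions. Of 19 testis and sperm genes, 19 were at least 2-fold higher in HF20 at week 3, 18 at week 9 and 13 at week 12, while 10 were lower at week 6 and 9 at week 15. Of all probes, 8.66%, 24.8% and 17.0% were that much higher at weeks 3, 9 and 12, and 8.69% and 6.58% lower at weeks 6 and 15. Odf2, a protein of the sperm tail, was at 3.66, -0.26, 5.23, 2.46, 0.55 and 0.99 in HF20 and at 1.74, 0.66, -0.40, 0.99, 1.06 and 1.21 in HFC. The HF20 arrays of weeks 3, 9 and 12 were the high ones, and the pairs of weeks 15 and 18 differed by -0.51 and -0.22. All 19 members were higher on average, with a median of 1.51, which was 0.24 without week 9 and -0.29 in the weeks scanned on the same day. No member had an unadjusted p below 0.05, and Acrv1, of the sperm acrosome, was higher at 6 of 6 weeks (1.69, unadjusted p = 0.0614 in limma).

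Of 24 epididymal genes, 16 were at least 2-fold higher in HF20 at week 9 and 16 at week 12, and 14 were at least 2-fold lower at week 6, against 24.8%, 17.0% and 8.69% of all probes. Crisp1, a cysteine-rich secretory protein of the epididymis, was at 6.09 and 5.80 at week 3, and at week 6 it was not well above background in HF20 and saturated in HFC (5.69). Adam7, a membrane protein of the epididymis, was at 5.04, -1.51, 5.34, 1.67 and 0.12 in HF20 at weeks 3, 9, 12, 15 and 18 and not well above background at week 6. Its HFC levels were 3.67, 2.66, 0.08, 0.62 and -2.75 at weeks 3, 6, 12, 15 and 18, and it was not well above background at week 9. The arrays without a measurable level thus fell in different weeks in the groups. Epididymal genes did not all go together: Gpx5 was at -0.81 in HF20 and 5.17 in HFC at week 3 but at 5.47 and -3.74 at week 15. The list median was 0.79, and it was 2.28 without week 6, 0.48 without week 9, 0.15 without week 12 and -0.18 with array weights. Defb12 and Defb15 were the 2 members with an unadjusted p below 0.05 (Defb15 2.12, SE 0.95, p = 0.0368 in limma). Both were higher, as were 1.30% of all probes at that threshold. At week 18 the seminal vesicle genes Svs5 and Svs6 were saturated in HFC (6.97 and 7.63) and at 1.78 and -1.62 in HF20.

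Structural cells also differed by week. Of 19 stromal progenitor and fibroblast genes, 15 were at least 2-fold lower in HF20 at week 12 and 8 were higher at week 6, against 20.7% and 9.82% of all probes, and the median over the weeks was -0.09 (0.16 without week 12). At week 3, 5 were lower and 0 higher, and at week 9, 8 were higher and 2 lower. The shares of all probes were 6.69% lower at week 3, and 24.8% higher and 19.1% lower at week 9. Lum, a matrix proteoglycan, was at 3.98, 3.82, 4.70, 2.42, 4.69 and 4.59 in HF20 and at 5.22, 2.74, 4.96, 4.95, 4.33 and 4.65 in HFC, with the low arrays at week 12 in HF20 and week 6 in HFC. Collagens (16) had 9 genes higher at week 6 and 14 lower at week 12, and Col5a3 differed by 1.63 and -3.83 at these weeks. At week 9, 6 collagens were at least 2-fold lower and 2 higher. Endothelial genes (15) were all lower on average, by small amounts (median -0.29). The median was -0.02 without week 12, when 13 were at least 2-fold lower, and -0.64 in the weeks scanned on the same day. At week 15, 7 were at least 2-fold lower and 0 higher, against 6.58% and 10.4% of all probes. At week 18, 2 were higher and 0 lower, against 18.4% and 4.46%. The VEGF receptor Kdr was at 2.09, 1.51, 1.71, 1.16, 2.81 and 4.07 in HF20 and at 2.78, 1.53, 2.77, 2.22, 3.99 and 3.05 in HFC, lower at 5 of 6 weeks and higher at week 18.

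Mesothelial genes (12) differed both ways. At week 9, 11 were at least 2-fold higher in HF20, against 24.8% of all probes. At weeks 3, 12 and 18, 8, 8 and 9 were that much lower, against 6.69%, 20.7% and 4.46% of all probes. At week 12, 3 were that much higher, against 17.0%. Msln, the surface protein mesothelin, was at 1.59, -0.89, 6.14, 1.33, 3.77 and 2.42 in HF20 and at 3.36, -4.07, 3.26, 4.08, 2.49 and 5.05 in HFC. Both groups had their lowest level at week 6. The list's median was -0.38, and it was -0.99 without week 9 and 0.02 without week 12. Cell cycle genes (19) had 14 at least 2-fold higher at week 18 and 12 lower at week 12, against 18.4% and 20.7% of all probes, with a median of -0.08 that was 0.24 without week 12.

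The lists of protein folding and of detoxification had small medians over the 6 weeks. The unfolded protein response list (14 genes) had a median of 0.25, with 12 higher on average. Its median at single weeks was highest at week 12 (0.83) and was -0.09 and -0.11 at weeks 6 and 18. The antioxidant and xenobiotic list (25) had a median of 0.14, with 16 higher on average, where the median of all probes was 0.04. Its members went both ways, with estimates from -1.803 (Cyp2e1) to 1.095 (Slc7a11). At least 2-fold higher and lower were 8 and 7 at week 9, and 9 and 7 at week 12. The shares of all probes were 24.8% and 19.1% at week 9, and 17.0% and 20.7% at week 12. The list was higher in HF20 in mean level at 2 weeks and lower at 4. Its 1 member with an unadjusted p below 0.05 was Nqo1, a quinone reductase of the oxidative stress response, at 0.68, -0.03, -1.24, 2.10, -0.55 and -0.52 in HF20 and at -0.03, -0.78, -1.73, -1.16, -0.08 and -2.07 in HFC. It was higher in HF20 at 5 of 6 weeks, most at week 12 (3.25), an estimate of 1.05 (SE 0.48, p = 0.0412 in limma). Of all probes, 1.30% were higher at that threshold. Ca9, a carbonic anhydrase induced by low oxygen, was higher at 5 of 6 weeks (0.99, SE 0.42, unadjusted p = 0.0269 in limma) in a hypoxia and glycolysis list whose median was -0.02. Ribosomal protein genes had 16 of 21 members at least 2-fold higher at week 9 (24.8% of all probes) with a median of 1.21, which was 0.21 under quantile scaling and 0.28 under normexp. Dcn, at the ceiling on both arrays of that week, differed there by 1.21. Reference genes (12) had a median of 0.01.

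Whether the difference grew or shrank with time was asked as its slope on week over the 12 arrays. Of 33456 probes, 0 (0%) passed an adjusted p of 0.05 in limma (smallest 0.3575). At an unadjusted p below 0.05 there were 1132 (3.38%) with a slope above 0 and 83 (0.248%) below 0. Quantile scaling gave 560 and 194. Their number of 1215 was 630, 682, 442 and 294 without weeks 3, 12, 15 and 18, and 313 with the dose of the diet label.

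Red blood cell genes had the smallest p. Slc4a1, the anion exchanger of the red cell membrane, was well above background on all 12 arrays, at -4.36, -3.40, -3.05, -1.67, -2.91 and 2.26 in HF20 and at -0.59, 0.05, -2.10, -3.12, -4.91 and -0.27 in HFC. HF20 was the lower array at weeks 3, 6 and 9 and the higher at weeks 12, 15 and 18, and the slope was 0.48 per week (SE 0.064, unadjusted p = 0.000171 in limma). Eraf, now named Ahsp, the chaperone of alpha globin, differed by -4.78, -3.29, -0.39, 3.41, 3.93 and 4.87 over the weeks, a slope of 0.70 (SE 0.077, unadjusted p = 5.23e-05 in limma). It was not well above background in HF20 at week 6 and in HFC at week 15. Kel, a red cell surface antigen, gave 0.59 (SE 0.051, unadjusted p = 1.07e-05 in limma) but was well above background on 3 arrays of each group.

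These courses depend on the disputed dose labels of weeks 15 and 18. With the dose of the diet label the slopes were 0.23 for Slc4a1 (SE 0.121), 0.28 for Eraf (SE 0.178) and 0.22 for Kel (SE 0.133). The mean erythroid level at weeks 15 and 18 was -1.82 and 1.93 on the arrays taken as HF20, -3.17 and -1.17 on those taken as HF5, and -3.17 and 0.29 in HFC.

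Other erythroid genes did not all share this course. Alas2, of haem synthesis, differed by -2.48, -1.94, -0.55, 1.79, 1.46 and -2.22, following the others until week 15 and turning at week 18. The globin gene Hba-a1 was at 3.03, 4.77, 5.22, 3.04, 3.93 and 5.58 in HF20 and higher in HFC at every week but week 15. Dpp10 had a slope of 0.44 and lacked the HFC array of week 12. Slopes below 0 were led by the zinc transporter Slc39a8 (-0.29, SE 0.056, unadjusted p = 0.00144 in limma), with differences of 2.02, 2.53, 1.65, 0.60, -0.62 and -2.05 and an HFC level of week 6 not well above background, and the muscle protein Smpx (-0.42). Smpx also lacked the HFC array of week 12. Mia2 (-0.24) and Gpr39 (-0.22) completed that side, and the other probes of Mia2 gave 0.02.

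**Figure D4:**
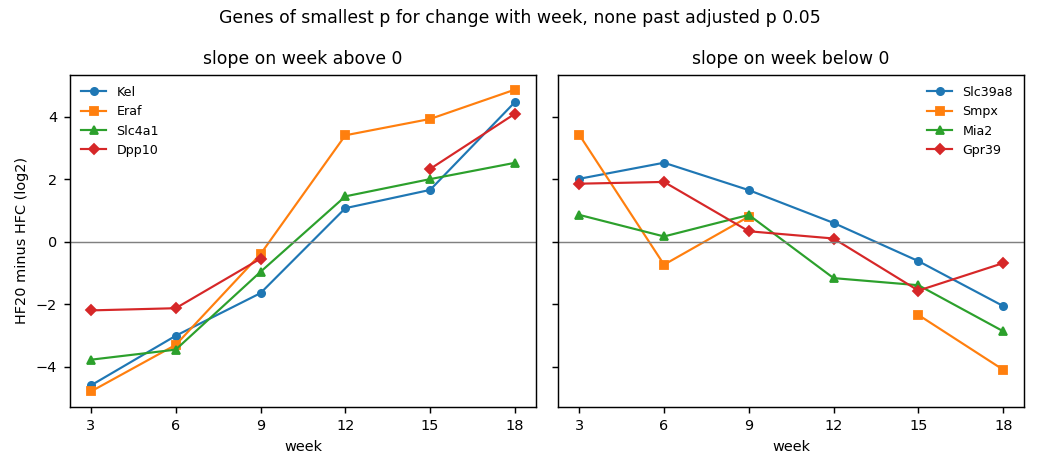
Difference (HF20 minus HFC, log2) by week for the 8 genes of smallest p for a change with week, 4 with a slope above 0 (left) and 4 below 0 (right). Slc4a1 goes from -3.77 at week 3 to 2.53 at week 18 and Slc39a8 from 2.02 to -2.05.

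HF20 was last set against the mean of the other doses, a contrast that uses no HFC array. Of 33709 probes, 0 (0%) passed an adjusted p of 0.05 in limma (smallest 0.9799), and at an unadjusted p below 0.05 684 (2.03%) were higher and 125 (0.371%) lower in HF20. Without week 3, 1 probe passed the adjusted threshold, and with arrays weighted by their quality 22 did. The 2 dimmest arrays of the fit lie in this contrast, HF5 of week 12 (75th percentile 25.818) and HF75 of week 3 (88.376). Nup214, a nuclear pore protein, was higher in HF20 by 1.25 (SE 0.247, unadjusted p = 3.85e-05 in limma), at -5.28, -4.35, -4.96, -3.15, -3.35 and -2.46 over the weeks. Against HFC its mean difference was 0.43 for HF20, -0.95 for HF5 and -0.70 for HF75, and a second probe of the gene gave 0.08 in the contrast of doses. Dpysl2 gave 0.78 (SE 0.170, unadjusted p = 0.000133 in limma) and 0.30 at its second probe. Both passed the adjusted threshold with array weights, at 1.34 (adjusted p = 0.01233 in limma) and 0.63 (adjusted p = 0.04742 in limma).

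Mrgpra6 (1.65) and the olfactory receptor Olfr469 (1.02) completed the higher side. Il34, the second ligand of the Csf1r receptor, was lower in HF20 than in the mean of the other doses (limma estimate -0.98, SE 0.325, unadjusted p = 0.00626). It was well above background on all 12 HF20 and HFC arrays, at 2.47, 1.98, 1.21, 0.20, 1.71 and 1.89 in HF20 and at 2.46, 1.33, 2.19, 2.37, 2.77 and 1.80 in HFC. HF20 of week 12 was its lowest array. Lin7a (-0.99), Guca2b (-1.17) and Tinag (-1.1) were the other genes of the lower side.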

How the data were processed

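RNA of epididymal SVCs was measured on one-colour Agilent arrays, 1 per diet and week. The deposited intensity values, per the file headers, were background-subtracted and detrended within each array by Agilent Feature Extraction 10.5.1.1 (9.1 in the submitters' processing notes) and were not scaled between arrays. The files of the 3 dosed groups at week 9 hold values rounded to 3 significant digits. Log2 processed signals were shifted by each array's log2 75th percentile over 43803 noncontrol spots, outlier spots were left out, and replicate spots were averaged to 40628 probes, of which 71.2% matched a RefSeq gene. Probes well above background on at least 0.5 of the arrays of 1 diet or more were tested with limma 3.58.1 (R 4.3.3) over the 30 arrays of weeks 3 to 18, with week as a block and Benjamini-Hochberg adjustment. The change of the difference with week was fitted in the 12 HF20 and HFC arrays. Week was taken as the pairing because the labels give it as a shared time point: same-week deviations of HF20 and HFC correlated at 0.05 to 0.65, over 0.1 at 5 of 6 weeks. The HFC array of the same week was the best match of the HF20 array at 3 of 6 weeks.

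Genes were named by rule. These were the 12 of smallest p per direction (4 for the change with week and for the contrast of doses) among probes well above background on at least 0.5 of the 12 arrays, and the 3 of largest difference per direction at each week. Each list gene stood for its probe of highest mean level over the 12 arrays. The members and the 45 lists (685 genes) were chosen with earlier results of these data known. The arrays of a group differ by week, so p-values measure the spread between these arrays, and their number limits the precision. The 8 arrays of days and of week 0 and the table of the authors' log2 ratios against LFC were not used here. The alternatives were other scalings, filters, blocks, weights, weeks and dose labels, and the methods' t-test. Through RefSeq, 4324 gene symbols were updated. Probe coordinates (mm9) were not used.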

Additional observations from a re-analysis of the deposited data

Results flagged for a closer look

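Among 167 groups of 6 arrays looked at, 21 (12.6%) held 1 array far from the other 5, 14 for a list's mean level and 7 for a gene; chance flags about 1 in 20 groups, and the groups share arrays.

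The HFC array of week 9 accounted for most of the lists. Its mean level was the highest of the HFC arrays for adipokines (3.280, others 0.051 to 0.730), lipid droplet genes (4.470, others 1.803 to 2.439), lipogenesis (3.185, others 0.459 to 1.120), adipogenesis and insulin signalling (2.010, others 0.150 to 0.493), brown fat genes (-0.192, others -1.582 to -1.125), cholesterol and LXR genes (1.433, others 0.533 to 0.784) and the mitochondrial respiratory chain (4.348, others 3.097 to 3.492). It was the lowest for immediate early genes (1.209, others 4.658 to 5.137). The HFC array of week 6 was the lowest for mesothelial genes (-4.574, others 0.341 to 2.622), transcription factors of fat depots (-4.688, others -3.097 to -2.257) and the antioxidant and xenobiotic list (0.434, others 1.092 to 1.319). It was also the lowest for Sox11 (-8.428), Slc39a8 (-8.844) and Tinag (-7.622), none of them well above background there. Defb12 was high in HFC at week 3 (-2.177, others -8.646 to -6.751) and Zfp931 in HFC at week 12 (-2.671, others -6.570 to -5.117).

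Among the HF20 arrays, week 9 was the highest for lysosomal genes (3.049, others 2.511 to 2.706) and the lowest for pericyte and smooth muscle genes (2.274, others 3.521 to 4.180). Week 12 was the lowest for interferon-stimulated genes (-0.675, others 0.483 to 1.016), week 15 for Pigg (-5.881, others -4.692 to -4.070) and week 6 for Tinag (-8.646, others -2.789 to 0.010), where it was not well above background.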

How the results depend on the processing

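No probe passed the adjusted threshold for HF20 minus HFC or for its change with week under any setting run. The number of unadjusted p below 0.05 for HF20 minus HFC, 516, was 64 with probes well above background on every array, 980 with the 12 arrays alone, 257 with scan day as the block, 1322 with array weights, 1019 with the dose of the diet label, 323 by the methods' t-test (202 with a 2-fold minimum) and 452 to 866 without single weeks. Without week as a replicate block it was 178, and the contrast of doses gave 231 in place of 809. The pairing by week changed no adjusted call. For the change with week, 1215 became 754 (quantile scaling), 424 (normexp), 192 (every array above background), 313 (diet label) and 294 to 1641 without single weeks. The contrast of doses had 0 adjusted calls, 22 with array weights and 0 to 1 without single weeks; its 809 became 111 (every array above background), 2985 (array weights), 1675 (brightness as a covariate) and 553 to 1107 without single weeks. Probes of one sign at all weeks numbered 560, and 160 with every array above background, 6729 in the 3 weeks scanned on the same day and 1285 to 1602 without single weeks. The median number of probes 2-fold apart at a week, 6971.5, was 1194 under normexp, 1021.5 with every array above background, 10460.5 with no filter and 6238 to 7705 without single weeks. The cause of these differences was not tested, beyond the fewer probes or weeks that a filter or a left-out week leaves. Of 658 values of the 40 genes named by p, 656 kept their direction and side of the threshold and 2 passed it (Nup214 and Dpysl2, array weights). These genes were picked by p in the same arrays and none passed in the main fit, so that count says little about robustness. With 1 array per diet and week, no difference at a single week has a replicate, and levels of dim probes rest on signals near background.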
